A study of Mus musculus with 2 samples.

Results

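The SLAM family receptors are immunoglobulin-like surface proteins of blood cells. The 6 genes described here, Cd244a, Cd48, Cd84, Slamf7, Slamf8 and Slamf9, were chosen by name with earlier results of the same comparison known, out of 10537 genes with a matched splice junction. Their difference between the libraries is therefore given as a description, with no test. The study sequenced RNA of mouse macrophages, 1 library from cells given interleukin 10 (IL-10, 100 ng/ml) for 4 h and 1 library from untreated cells. Both came from male C57BL/6JJcl mice, as the adherent fraction of peritoneal cells drawn out by thioglycolate, and how many mice gave cells to each is not stated in the labels. The protocol text of the untreated sample repeats that of the IL-10 sample, so the groups rest on the sample titles. All 6 genes had at least 20 reads over both libraries. Cd244a was the single gene of the 6 that differed by 2-fold or more. Cd84 was 1.27-fold lower in IL-10-treated cells, and Cd48, Slamf7 and Slamf9 had ratios near 1.

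SLAM family receptors bind one another between neighbouring cells. Most bind a copy of themselves, whereas Cd244a (also called 2B4) binds Cd48, which has no cytoplasmic tail and is held in the membrane by a lipid anchor. The tails of Cd244a, Cd84, Slamf7, Ly9, Slamf6 and Slamf1 carry tyrosine switch motifs (ITSM) that recruit either small SAP-type adaptors or inhibitory phosphatases. Slamf8 and Slamf9 have short tails without that motif. In mouse macrophages Slamf7 takes part in phagocytosis together with the integrin Itgam, and Slamf8 restrains the NOX2 oxidase.

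Each value counts sequencing reads that cross a splice junction and is thus tied to a pair of joined exons. The exon joins shown here are those on which the results turn, 24 bases on each side, from the GENCODE M21 transcripts (GRCm38). In the first 4, capitals mark the downstream exon. In the first Cd84 line, capitals mark the bases between a pair of alternative acceptors, and in the first Slamf7 line they mark the whole of exon 5.
Cd244a exon 2 to 3: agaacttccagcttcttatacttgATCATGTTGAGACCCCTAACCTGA
Cd244a exon 4 to 5: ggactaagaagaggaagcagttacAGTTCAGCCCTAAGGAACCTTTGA
Cd48 exon 1 to 2: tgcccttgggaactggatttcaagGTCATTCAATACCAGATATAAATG
Cd48 exon 2 to 3: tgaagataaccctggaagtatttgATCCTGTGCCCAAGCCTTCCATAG
Cd84 exon 5 to 6, upstream acceptor: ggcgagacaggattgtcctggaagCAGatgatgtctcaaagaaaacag
Cd84 exon 5 to 6, downstream acceptor: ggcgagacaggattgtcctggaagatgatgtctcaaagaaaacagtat
Slamf7 with exon 5: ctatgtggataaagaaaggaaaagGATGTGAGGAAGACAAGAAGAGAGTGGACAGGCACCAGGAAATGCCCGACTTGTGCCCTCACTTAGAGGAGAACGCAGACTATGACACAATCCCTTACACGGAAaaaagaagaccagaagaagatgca
Slamf7 without exon 5: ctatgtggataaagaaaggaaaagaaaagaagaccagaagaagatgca

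Both libraries were of like depth. IL-10-treated cells held 3998954 spliced reads and untreated cells 4035991, of which 96.0% and 95.8% lay on introns of a single named gene. The 6 genes took 3198 reads in IL-10-treated cells and 3522 in untreated cells, or 833.3 and 911.0 RPM (reads per 1000000 named reads). Macrophage markers were abundant in both, with 11 of 12 measured at 20 reads or more (Msr1 1.82, Mrc1 1.44, Itgam 1.32 and Lyz2 0.712 as ratios of IL-10 to untreated) and sums of 100913 reads in IL-10-treated cells and 120719 in untreated cells. Cd14, with its lone intron, had 244 and 207 reads beside these. With 1 library per group there is no replicate check, each difference compares these libraries and not the conditions, and every 95% interval covers counting error only. Intervals of ratios are exact conditional binomial (Clopper-Pearson). In these cultures fewer cells of a type and less RNA per cell cannot be told apart.

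The order of the 6 genes by level was the same in both libraries. The models of Cd84 and Cd244a have 8 introns each, and both count an intron 1 with 0 reads in both libraries. That of Cd84 leaves out 68 reads in IL-10-treated cells and 50 in untreated cells at another acceptor of intron 5. As RPM per intron of the main coding model, Cd84 stood at 50.8 in IL-10-treated cells (95% interval 48.4 to 53.4, exact Poisson, here and for the other levels) and 65.5 in untreated cells (62.7 to 68.5). Cd48 followed with 37.4 (34.0 to 41.1) and 37.5 (34.1 to 41.2), Slamf7 with 28.7 (26.5 to 30.9) and 26.8 (24.8 to 29.0), and Slamf8 with 21.7 (19.4 to 24.2) and 17.9 (15.9 to 20.2). Slamf9 had 5.65 (4.36 to 7.20) and 5.26 (4.02 to 6.76). Cd244a was the lowest of the 6, with 1.69 (1.27 to 2.22) in IL-10-treated cells and 0.097 (0.020 to 0.284) in untreated cells. Neighbours in this order did not overlap in counting error, but introns of 1 gene differed more than that: in IL-10-treated cells the introns of Cd84 with reads ran over 37 to 556 reads, those of Cd48 over 82 to 177, those of Slamf7 over 75 to 161 and those of Slamf8 over 30 to 183. The order of these 4 is therefore not separated from the spread between introns. Among genes with a coding model and a matched junction, Cd84 stood at percentile 97.0 of the levels in IL-10-treated cells and 97.8 in untreated cells. Cd244a stood at 46.4 and 9.15. Genes without a matched junction in either library were left out of this ranking.

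**Figure D1:**
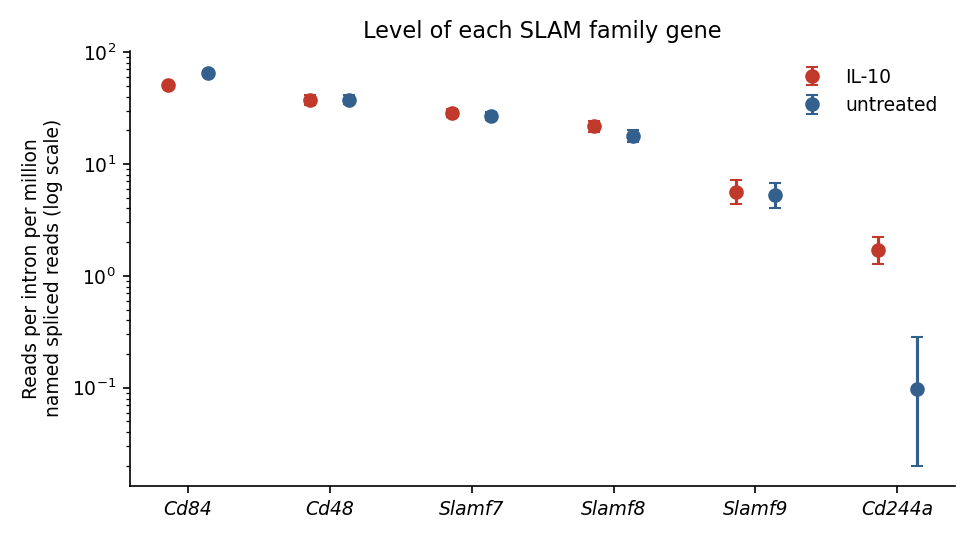
Level of each SLAM family gene in IL-10-treated cells (red, left) and untreated cells (blue, right), as RPM per intron on a log axis, with exact Poisson 95% intervals. The order runs from Cd84 at 50.8 and 65.5 to Cd244a at 1.69 and 0.097. The points of Cd244a lie farther apart than those of the other 5 genes described.

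Most reads of the receptor Cd244a came from IL-10-treated cells. Its introns held 52 reads in IL-10-treated cells and 5 in untreated cells, a ratio of 10.5 (95% interval 4.21 to 33.6). By the rule of at least 20 reads, a 2-fold ratio and an interval without 1, Cd244a was 1 of 6 genes called higher and 0 of 6 were called lower, where 1.75% of all 8359 measured genes were called higher, 1.5% lower and 3.24% in either direction. In the class of read number of Cd244a (20 to 99 reads), 109 of 2479 genes were called higher and 115 lower. Since Cd244a was chosen with this ratio known, nothing is read from the count of 1 in 6. The reads were spread along the gene, on chromosome 1 of mm9 and its plus strand. Intron 4 (chr1:173507479-173507945, 467 bases) had 21 reads in IL-10-treated cells and 0 in untreated cells, with a lower 95% limit of 5.25 for the ratio. Intron 2 (chr1:173504136-173504223, 88 bases) had 10 and 0 (lower limit 2.26), and intron 3 had 6 and 0 (lower limit 1.19). Introns 5, 6, 7 and 8 had 6, 1, 3 and 5 reads in IL-10-treated cells, against 1, 1, 0 and 1 in untreated cells.

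Intron 1 of Cd244a, of 14295 bases, had 0 reads in both libraries, so the join of exon 1 to exon 2 was not seen at this depth. An intron annotated beyond the coding model (chr1:173538681-173539176), where the span of Cd244a overlaps that of Ly9 on the opposite strand, had 0 reads in IL-10-treated cells and 2 in untreated cells. On the coding model alone Cd244a had 52 reads in IL-10-treated cells and 3 in untreated cells, a ratio of 17.5. With all junctions on its strand within the annotated span the ratio was 3.71 (70 and 19 reads). Of these reads, 15 and 14 were on a junction outside the annotation, 2 bases from an intron of Ly9 on the opposite strand. On the introns with a read in each library it was 4.03 (12 and 3 reads), and the gene then had too few reads for a call. With 5 reads added to each library it was 5.74, and without intron 4 it was 6.25 (31 and 5 reads). Cd244a is best known from natural killer and T cells. Of 17 T and NK cell markers none reached 20 reads, 11 had 0 reads, and the list summed to 14 reads in IL-10-treated cells and 4 in untreated cells. Most were on Lck (5 and 1), Cd3e (4 and 0), Cd4 (2 and 1) and Cd3g (2 and 1). The NK cell genes Ncr1 and Klrb1c and the cytotoxic granule genes Gzmb and Prf1 had 0 reads in both, Gzma had 1 and 0, and Klrd1 had 0 and 1. The list moved in the same direction as Cd244a, and its part in that result was not tested.

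**Figure D2:**
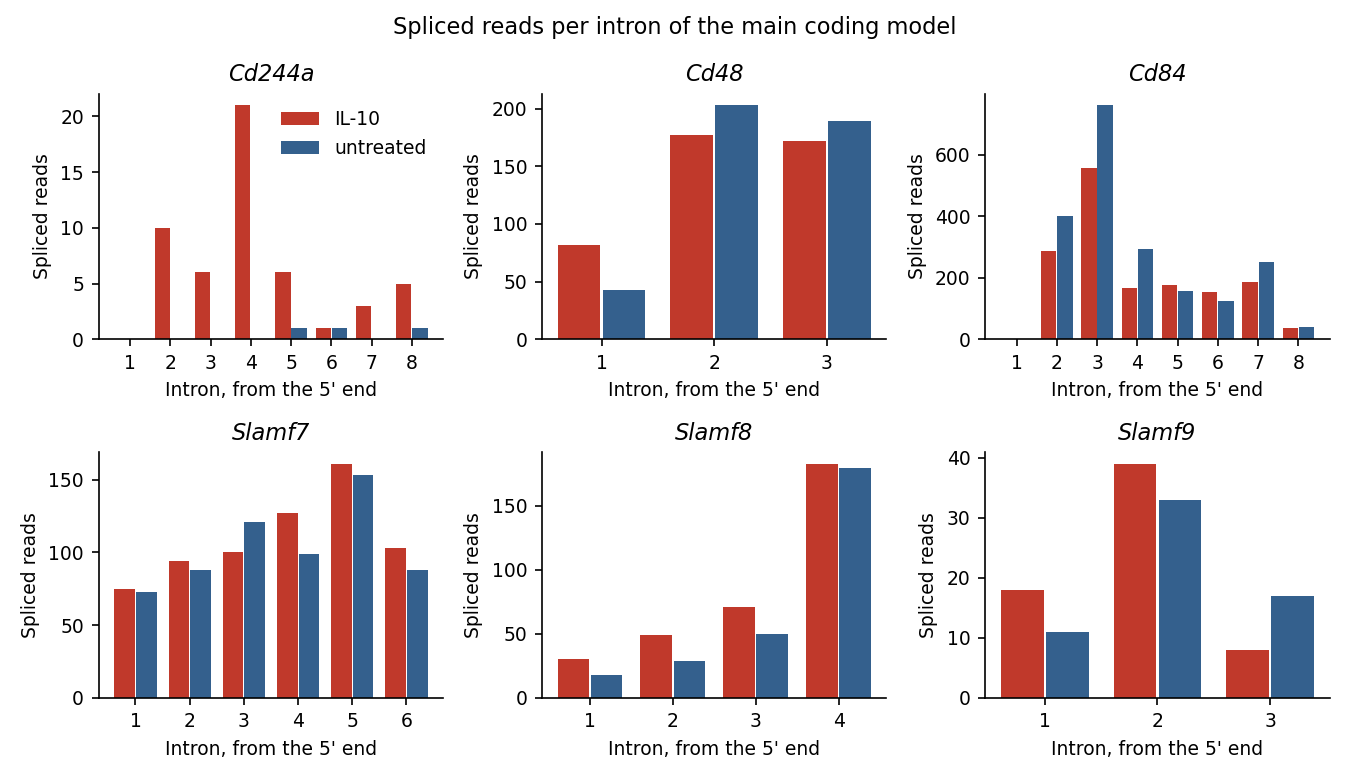
Spliced reads at each intron of the main coding model, numbered from the 5′ end, in IL-10-treated cells (red, left bars) and untreated cells (blue, right bars). Cd244a has 21 reads in IL-10-treated cells at intron 4, against 0 in untreated cells, whereas the bars of Slamf7 at intron 1 stand at 75 and 73.

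The ligand of Cd244a, Cd48, was as abundant in one library as in the other, but its introns differed. Cd48 had 432 reads in IL-10-treated cells and 435 in untreated cells, a ratio of 1.0 (0.874 to 1.15). Intron 1 (chr1:173612298-173625794), which follows the exon with the start codon, had 82 reads in IL-10-treated cells and 43 in untreated cells, a ratio of 1.92 (1.31 to 2.85). Intron 2 had 177 and 203 reads (0.878, 0.714 to 1.08), and intron 3 had 172 and 189 (0.917, 0.741 to 1.13). The interval of intron 1 did not overlap that of the rest of the gene (0.899, 0.776 to 1.04). Set against the rest of the gene, intron 1 was higher by 1.09 on the log2 scale, at percentile 99.2 of the 861 genes with at least 100 reads on the first intron and 100 on the others. Their median was 0.04 and their central range ran from -0.63 (the lower 5%) to 0.71 (the upper 5%), so first introns were not higher in IL-10-treated cells in general.

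Among the receptors that bind a copy of themselves, Cd84 was lower in IL-10-treated cells and Slamf7 was near 1. Cd84 had 1645 reads in IL-10-treated cells and 2104 in untreated cells, a ratio of 0.788 (0.738 to 0.841). It was the single gene of the 6 with an interval below 1, as 13.1% of all measured genes had, and Cd244a and Slamf8 were the 2 with an interval above 1, as 12.9% had. Among the 2203 genes in the same class of read number the lower 5% of ratios lay under 0.782, and Cd84 stood just inside that bound. The ratio changed along the gene. Intron 2 had 288 and 401 reads (0.724), intron 3 had 556 and 761 (0.736) and intron 4 had 166 and 295 (0.567, 0.466 to 0.688), IL-10-treated cells given first each time.

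Farther along Cd84, intron 5 had 175 reads in IL-10-treated cells and 156 in untreated cells (1.13, 0.905 to 1.41), and intron 6 had 154 and 123 (1.26, 0.989 to 1.61). Intron 7 was again lower, with 185 and 250 (0.745, 0.613 to 0.905), and intron 8 had 37 and 41. Of the 9 junctions of Cd84, 6 were on the side of the sum. Introns 4, 5 and 6, and the second acceptor of intron 5, had intervals apart from that of the rest of the gene. Over the 6 genes, 5 of 18 introns with at least 100 reads stood apart in this way, and 10.6% of 10902 introns of all genes did. No order from 5′ to 3′ is seen in Cd84, since intron 7 fell back to the value of introns 2 and 3.

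**Figure D3:**
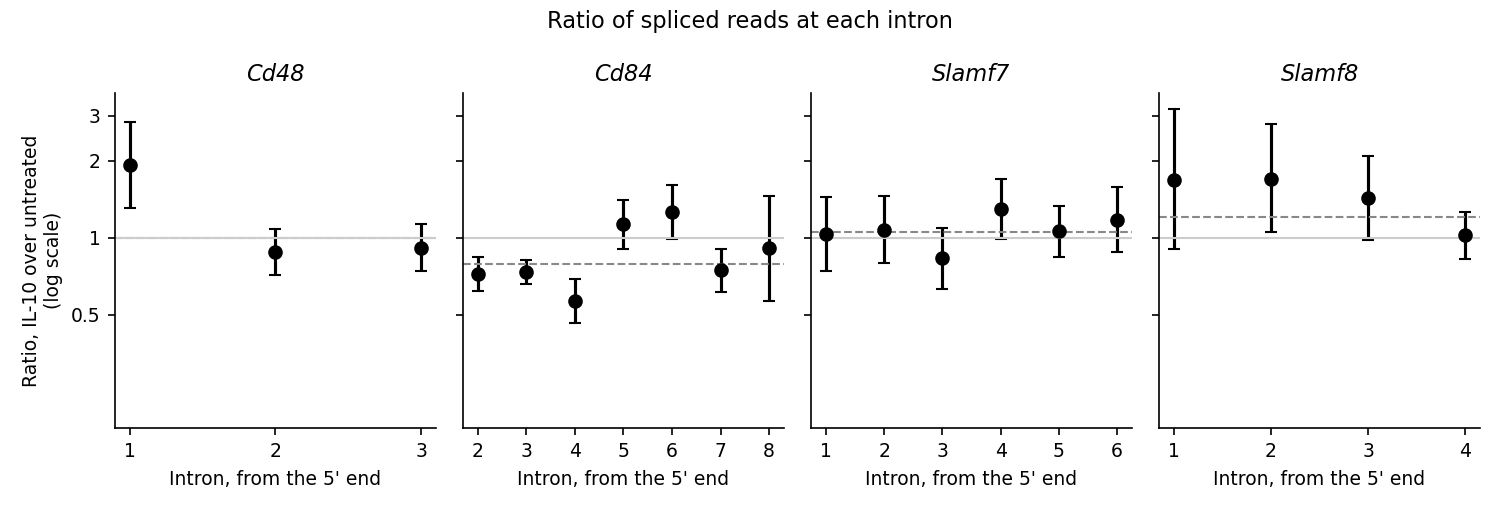
Ratio of spliced reads, IL-10 over untreated, at each intron on a log axis, with Clopper-Pearson 95% intervals of counting error. Dashed lines give the ratio of the whole gene, and the solid line is 1. Intron 1 of Cd48 stands at 1.92 above introns 2 and 3, and introns 5 and 6 of Cd84 stand above the others.

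Slamf7, the phagocytosis receptor, had 671 reads in IL-10-treated cells and 640 in untreated cells, a ratio of 1.06 (0.946 to 1.18). Its 6 introns had ratios of 0.833 to 1.29, each with an interval that included 1, and no intron stood apart from the rest of the gene. Ly9, a family gene outside the 6, is a large self-binding receptor, with 1528 reads in IL-10-treated cells and 1706 in untreated cells (0.902, 0.842 to 0.967). Its level, 43.6 RPM per intron in IL-10-treated cells and 48.7 in untreated cells, was the second highest of the family. Its introns ran over 55 to 360 reads in IL-10-treated cells, so this rank is not separated from the spread between introns. As in Cd48, the first intron of Ly9 was higher in IL-10-treated cells, with 139 reads against 90 in untreated cells (1.56, 1.19 to 2.05), while the rest of the gene stood at 0.866 (0.805 to 0.931), which placed it at percentile 97.0 of the 861 genes. The first intron of Slamf7 did not share this, at -0.03 on the same log2 scale and percentile 43.3. Slamf6 had 10 reads in IL-10-treated cells and 17 in untreated cells (0.593, 0.243 to 1.37). Slamf1, the receptor that names the family, had 0 reads in both, which allows up to 0.782 RPM in IL-10-treated cells and 0.776 RPM in untreated cells.

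The short-tailed receptors differed little. Slamf8 had 333 reads in IL-10-treated cells and 277 in untreated cells, a ratio of 1.21 (1.03 to 1.43), with all 4 introns on the same side. Introns 1, 2 and 3 stood at 1.68 (30 and 18 reads), 1.70 (49 and 29) and 1.43 (71 and 50), and intron 4, with 183 and 180 reads, at 1.02 (0.829 to 1.27). Intron 4 was lower than the rest of the gene by 0.60 on the log2 scale, at percentile 4.56 of the last introns of 1339 genes. Those of Cd48, Ly9 and Slamf7 stood at percentiles 23.5, 52.4 and 71.4. The interval above 1 thus rested on introns 1 to 3, which together had 150 reads in IL-10-treated cells and 97 in untreated cells (1.56, 1.20 to 2.03). Slamf9 had 65 reads in IL-10-treated cells and 61 in untreated cells (1.07, 0.745 to 1.55), and its 3 introns had 18, 39 and 8 reads in IL-10-treated cells, against 11, 33 and 17 in untreated cells.

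The choice of splice sites, which was not used to choose these genes, was also compared. At 24 donors and acceptors with at least 20 reads in each library, 64 junction shares were set side by side, and a junction could enter at both of its ends. Of these shares, 0 differed by 20 percentage points or more with intervals that did not overlap. No such count was made over all genes, so nothing is read from it. None of the sites lay in Cd244a, which had too few reads. The largest difference was at exon 5 of Slamf7, an exon of 104 bases whose removal changes the reading frame (the coding part has 333 codons with it and 294 without). At the donor of exon 4, 7.80% of reads left exon 5 out in IL-10-treated cells (11 of 141, 95% interval 3.96 to 13.5), and 15.3% did in untreated cells (18 of 118, 9.30 to 23.0). The intervals overlapped. At the acceptor of exon 6 the shares were 6.40% (11 of 172) in IL-10-treated cells and 10.5% (18 of 171) in untreated cells.

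Exon 6 of Cd84 has a pair of acceptors 3 bases apart, shown above by the capitals. The upstream one, which adds the 3 bases to the exon, took 71.7% of reads in IL-10-treated cells (175 of 244, 65.6 to 77.3) and 75.7% in untreated cells (156 of 206, 69.3 to 81.4), and the downstream one 27.9% and 24.3%. The coding parts of the corresponding models hold 329 and 328 codons. Exon 3 of Cd84, of 333 bases, was left out by 5.26% of reads at its upstream donor in IL-10-treated cells (16 of 304, 3.04 to 8.41) and by 6.31% in untreated cells (27 of 428, 4.20 to 9.05). Exon 3 of Cd48, of 267 bases, was left out by 1 read in IL-10-treated cells and 0 in untreated cells. In Slamf8 the join of exon 2 to exon 4, outside the annotation, took 15.3% of reads at its donor in IL-10-treated cells (9 of 59, 7.22 to 27.0) and 14.7% in untreated cells (5 of 34, 4.95 to 31.1). Both forms of Cd84 exon 6, and the forms with and without Slamf7 exon 5, were thus present in both libraries.

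**Figure D4:**
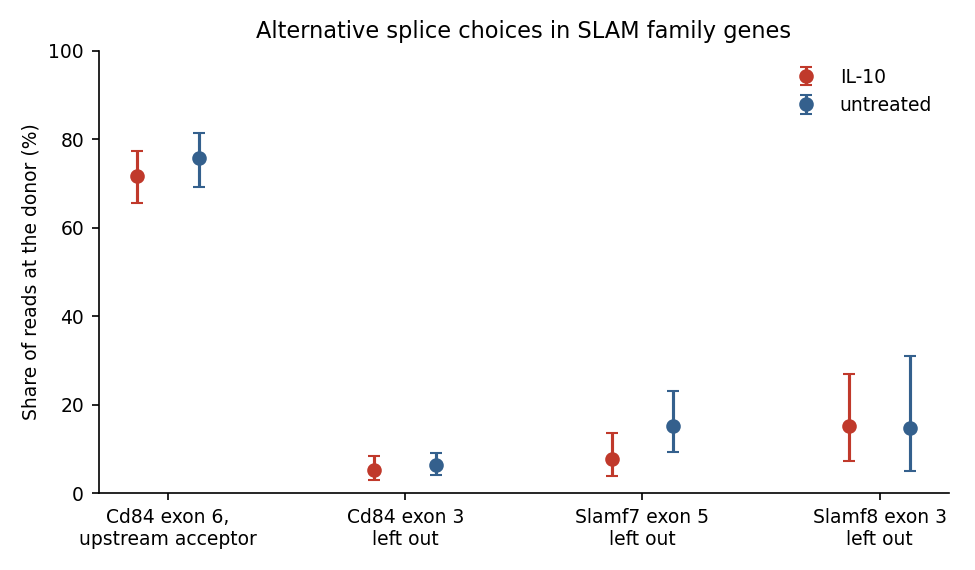
Share of reads at the shared donor, in percent, for 4 alternative splice choices in IL-10-treated cells (red, left) and untreated cells (blue, right), with Clopper-Pearson 95% intervals. The intervals overlap in each pair, and the largest gap is at exon 5 of Slamf7, 7.80% and 15.3%.

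The SAP-type adaptors that bind switch motifs were scarce. Sh2d1a and Sh2d1b2 had 0 reads in both libraries, and Sh2d1b1 (EAT-2) had 2 reads in IL-10-treated cells and 5 in untreated cells. The lists of other pathway genes that follow were drawn up with earlier results of these data known, and 0 of their genes were called in either direction, where 3.24% of all measured genes were. Intervals without 1 grow more common with read number. Over all measured genes 12.9% lay above 1 and 13.1% below, and in the 184 genes of the class with the most reads 32.1% lay above and 50.5% below. The counts of intervals in these lists are therefore given as descriptions only. Among the kinases, 8 of 9 listed genes were measured, 3 had an interval above 1 and 0 below, and the median log2 ratio was 0.11, where that of all measured genes was -0.00099. The Src-family kinase Fgr had 1019 reads in IL-10-treated cells and 749 in untreated cells (1.37, 1.25 to 1.51), and Fyn, the kinase that SAP recruits, had 178 and 135 (1.33, 1.06 to 1.67). Syk stood at 1.17 (1.07 to 1.28) and Src at 0.855 (0.498 to 1.46). All 4 phosphatases were measured (median 0.16): the lipid phosphatases Inppl1 (SHIP-2) and Inpp5d (SHIP-1) at 1.35 (1.21 to 1.51) and 1.16 (1.08 to 1.26), Ptpn11 (SHP-2) at 1.08 (0.901 to 1.30) and Ptpn6 (SHP-1) at 0.912 (0.858 to 0.969).

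Of 12 signal adaptors and effectors 11 were measured, with 2 intervals above 1, 3 below 1 and a median log2 ratio of -0.17. The exchange factor Vav1 had 2239 reads in IL-10-treated cells and 1457 in untreated cells (1.55, 1.45 to 1.66), and the kinase subunit Pik3cd had 809 and 571 (1.43, 1.28 to 1.59). The inhibitory adaptor Dok1 had 62 and 99 reads (0.631, 0.452 to 0.875) and the adaptor Lat 82 and 115 (0.718, 0.534 to 0.962). All 6 phagocytosis partners of Slamf7 were measured, with 5 intervals above 1, 1 below and a median of 0.11. Of the 6, 4 belong to the class with the most reads. Itgam stood at 1.32 (1.16 to 1.51) on 521 and 397 reads, and at 1.17 (1.14 to 1.20) with introns shared with other gene models. The integrin activator Fermt3 stood at 1.14 (1.03 to 1.27), the cytoskeletal linker Tln1 at 1.08 (1.04 to 1.12) and the signalling chain Tyrobp at 1.08 (1.04 to 1.11). The gene with the interval below 1 was Itgb2, with 15417 reads in IL-10-treated cells and 16159 in untreated cells (0.961, 0.940 to 0.983).

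The oxidase that Slamf8 restrains had lower values for several subunits. All 7 listed NOX2 genes were measured, 4 had an interval below 1 and 1 above, and the median log2 ratio was -0.19. The membrane subunit Cyba (p22phox) had 8104 reads in IL-10-treated cells and 11591 in untreated cells (0.704, 0.685 to 0.725), and Ncf1 (p47phox) had 1458 and 1737 (0.846, 0.788 to 0.907). The GTPase gene Rac1 stood at 1.15 (1.05 to 1.25). The 4 genes of the phagosome kinase complex that Slamf1 recruits had ratios of 1.01 (Becn1), 1.03 (Pik3c3), 1.12 (Pik3r4) and 1.17 (Uvrag), each with an interval that included 1. The "don't eat me" pair next to which Slamf7 acts had ratios of 1.14 (0.992 to 1.31) for Cd47 and 1.07 (1.02 to 1.12) for its receptor gene Sirpa, and the family relative Crtam had 0 reads in both libraries.

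**Figure D5:**
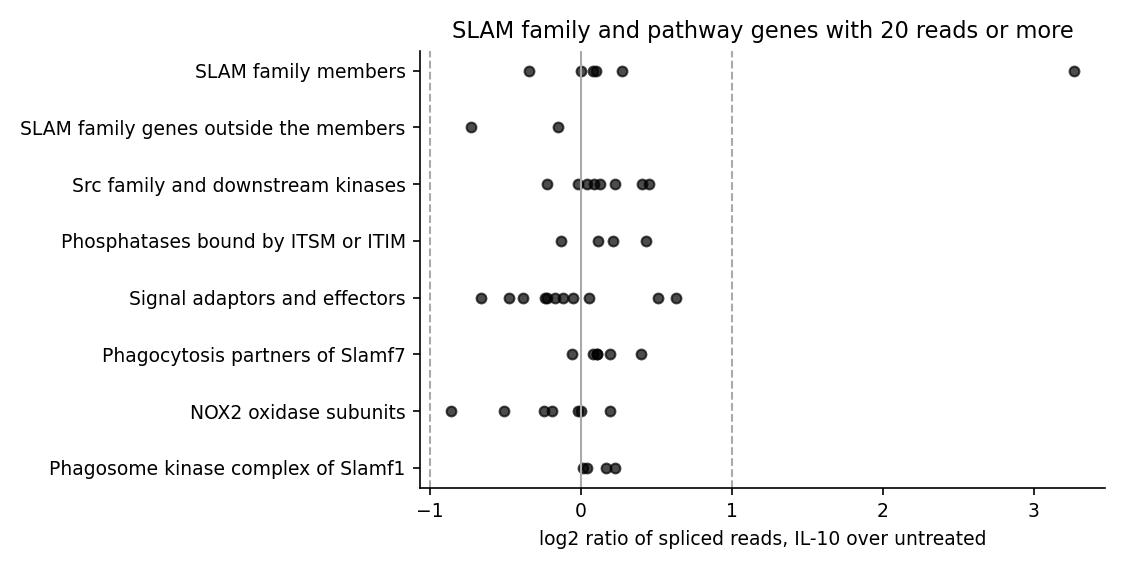
Log2 ratio of spliced reads, IL-10 over untreated, for SLAM family and pathway genes with 20 reads or more, 1 point per gene. Dashed lines mark a 2-fold ratio, and Cd244a alone lies beyond them.

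All SLAM family genes lie on chromosome 1, in a main cluster of 7 genes (Cd244a, Ly9, Slamf7, Cd48, Slamf1, Cd84 and Slamf6) and with Slamf9 and Slamf8 apart from it. Of 15 measured genes beside or between them, 1 was called higher and 0 lower, where 1.75% and 1.5% of all measured genes were, and ratios ran from 0.604 (Igsf9, 9 and 15 reads) to 2.07. The called gene was F11r, a junctional adhesion molecule on the Cd244a side of the main cluster, with 37 reads in IL-10-treated cells and 18 in untreated cells (2.07, 1.15 to 3.86). In its class of read number 109 of 2479 genes were called higher, and the upper 5% of ratios began at 2.13. Its neighbours Usf1 and Arhgap30 stood at 1.09 (0.783 to 1.52) and 1.13 (0.967 to 1.32). Beyond Slamf6, Ncstn stood at 0.970 (0.885 to 1.06), Copa at 1.14 (1.07 to 1.21) and Pex19 at 1.05 (0.824 to 1.35). Around Slamf9 and Slamf8, the ratios were 1.17 for Dcaf8, 0.966 for Pea15a, 0.888 for Igsf8, 1.02 for Vsig8, 0.993 for Tagln2, 0.881 for Aim2, 1.06 for Ifi214 and 0.688 for Ifi209, and of these Igsf8 alone had an interval without 1 (0.804 to 0.981).

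Markers of other cell types that carry SLAM receptors were mostly scarce, and the measured ones were not called. Of 9 B cell markers 2 were measured, Ighm at 0.816 (0.503 to 1.31) and Cd22 at 0.912 (0.801 to 1.04). The list summed to 494 reads in IL-10-treated cells and 550 in untreated cells, of which Cd22 held 450 and 497. Cd79a had 1 and 1 reads and Pax5 had 1 and 0. Of 10 dendritic and mast cell markers 2 were measured, Itgax at 1.095 (1.06 to 1.13), which macrophages also express, and Tpsb2 at 0.916 (0.349 to 2.38). That list summed to 6978 reads in IL-10-treated cells and 6427 in untreated cells, of which Itgax held 6958 and 6403. The dendritic cell genes Flt3 and Zbtb46 had 0 reads in both libraries.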

How the data were processed

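The deposited values are counts of reads placed across each splice junction, unscaled, per the file headers. Reads were aligned to mm9 with TopHat, per the submitters' processing notes, which also name Cufflinks. Versions are not given in the sources used here. Junctions were named from GENCODE M21 (GRCm38) by chromosome, strand and exact intron length, where at least 2 introns of a gene shared an offset of up to 20 Mb. Of 131057 junctions 81.4% matched, 35 of them in the 6 genes, which all had 1 offset. Coordinates are mm9. Genes with reads on fewer than 2 introns were not matched. Listed genes without a match were looked up at the offset of the matched genes on both sides, a step added after the values were seen, and 93 of 93 matched listed genes had the offset of their neighbours. 1 listed relative is not in the annotation.

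Reads on introns of 1 gene alone were summed and divided by their library total (3837953 in IL-10-treated cells, 3866130 in untreated cells), and compared as ratios with Clopper-Pearson 95% intervals. A gene was measured at 20 reads over both libraries, and called at a 2-fold ratio with an interval without 1. Log2 ratios used 0.5 reads as pseudocount. A count of 0 allows up to 3 reads. Named genes were the 6 and, of each list, called genes or else up to 4 with the largest log2 ratio, plus the 3 nearest measured genes on each side of a cluster and those between. Some genes that this rule names are not reported here. Others were named after their values were seen, as were the comparisons of end introns and of introns with the rest of a gene. With 2 libraries no gene can be named for a like pattern. Members and lists were chosen with earlier results of these data known. Alternatives covered scaling with edgeR 4.0.16 (TMM, 0.989) and DESeq2 1.42.0 (1.0), introns, overhangs and thresholds. The procedure was run on simulated counts with counting error alone. That run cannot show how it behaves under variation between libraries or introns. Python 3.11.15, numpy 2.4.6, scipy 1.17.1, pandas 2.3.3, matplotlib 3.10.9 and R 4.3.3 were used. Intervals and floors cover counting error only, since reads carried no molecular identifiers.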

Additional observations from a re-analysis of the deposited data

Results flagged for a closer look

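These junctions match no annotated intron and had more than 3 reads in a library, the limit that a count of 0 allows. In Cd48, the donor of exon 3 was joined to an acceptor 4 bases beyond the annotated one by 8 reads in IL-10-treated cells and 6 in untreated cells, and to another acceptor, after an intron ending at position 173634677 of chromosome 1, by 6 and 0. In Cd84, an intron starting at position 173770851 of chromosome 1 and ending at exon 3 was spanned by 1 read in IL-10-treated cells and 6 in untreated cells. Introns starting at positions 173798640 and 173802052, both within intron 3, and ending at exon 4 were spanned by 0 and 5 and by 0 and 7 reads. Exon 7 of Cd84 was left out by 6 reads in IL-10-treated cells and 4 in untreated cells. Exon 4 of Slamf7 was left out by 5 and 6 reads, and exon 3 of Slamf8 by 9 and 5. Within the annotated span of Cd244a, a plus-strand junction with 15 reads in IL-10-treated cells and 14 in untreated cells lay 2 bases from an intron of Ly9 on the minus strand, which had 122 and 168 reads.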

How the results depend on the processing

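Each of the 6 ratios was recomputed under 10 alternatives, and 55 of 60 values stayed within the counting interval given in the report. Scaling moved no value beyond it. Cd244a ran from 3.71 to 17.5. Its most-read intron alone had 21 reads in IL-10-treated cells and 0 in untreated cells. For that setting a floor of 3 reads stood in for the 0, which gave 7.05, so this value is not a measured ratio. Cd244a stood at 3.71 (70 reads in IL-10-treated cells, 19 in untreated cells) with all plus-strand junctions within its annotated span. Of these reads, 15 and 14 were on the junction 2 bases from an intron of Ly9. On introns with a read in each library Cd244a stood at 4.03 (12 and 3 reads, under the minimum for a call). Cd84 stood at 0.736 with its most-read intron alone, and Slamf8 at 1.02 with that intron alone and at 1.56 without it. Cd48 (0.878 to 1.11) and Slamf9 (0.935 to 1.19) had values on both sides of 1, and Slamf7 ran from 1.05 to 1.07. Over all genes 271 were called, 47 with at least 100 reads, 692 at 1.5-fold and 2166 with an interval without 1 at any fold. The count of splice choices stayed at 0 with 10 reads per site or 10 points. Neither setting could change it, since the first gave the same 24 sites and the largest difference was 7.45 points. Of 349 values for 35 other named genes, 331 stayed within the interval. None of these 35 genes was called, and F11r was not among them. Some had values on both sides of 1, such as Rac1 with 1.145, and 0.875 with its most-read intron alone. No paired analysis was possible because each group has 1 library. The few reads of Cd244a, Slamf6 and the markers limit what their ratios can show.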
